A study of Homo sapiens with 15 samples.

Results

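The urea cycle and its entry and exit steps were followed in the PEO1 cell line, an established human ovarian cancer line, through 10 genes: NAGS, CPS1, OTC, SLC25A15, SLC25A13, ASS1, ASL, ARG1, ARG2 and ODC1. The members were all probe sets annotated to exactly one of these genes, which gave 18 probe sets among the 54675 on the array. Of these, 13 probe sets of 8 genes exceeded an intensity of 16 on at least 1 array, the floor below which values were treated as background. Untreated PEO1 cells grown in RPMI-1640 with serum had been stained for the surface proteins CD90 and CD133, and live cells were sorted into a CD90+/CD133+, a CD90+/CD133- and a CD90-/CD133- fraction, with 5 arrays each and 15 in all. All fractions came from this single line, with no genetic change and no added ammonia. GEO's design text mentions triplicate growth, but each fraction has arrays numbered 1 to 5, and these numbers were followed. The methods describe 5 biological replicates for the CD90+/CD133- and CD90-/CD133- fractions, and they do not mention the CD90+/CD133+ arrays.

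The urea cycle turns ammonia into urea. In mitochondria, CPS1 (carbamoyl phosphate synthetase 1) fixes ammonia, and it works only when bound by N-acetylglutamate, the product of NAGS. OTC joins the resulting carbamoyl phosphate to ornithine, which the carrier SLC25A15 brings in while taking citrulline out. In the cytosol, ASS1 condenses citrulline with aspartate, which SLC25A13 (citrin) exports from mitochondria, and ASL splits the product into arginine and fumarate. The arginases ARG1, in the cytosol, and ARG2, in mitochondria, cleave arginine into urea and ornithine, and ODC1 (ornithine decarboxylase) draws ornithine into polyamine synthesis. The whole cycle runs in hepatocytes, whereas other cells carry parts of it, mostly the arginine-making and arginine-using steps.

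THY1, which encodes CD90, lay at intensities of 728 to 2171 in CD90+/CD133+ cells and 795 to 1221 in CD90+/CD133- cells, against 57.8 to 101 in CD90-/CD133- cells. PROM1, which encodes CD133, lay at 429 to 1652, 21.5 to 156 and 9.32 to 44.1 in the same order of fractions, so its levels followed the sort labels without overlap between the CD133+ cells and the others. All 8 ovarian carcinoma markers examined (EPCAM, KRT7, KRT8, KRT18, PAX8, WT1, MUC16 and MSLN) were above the floor on every array. Their summed intensity was 29235 to 35782 in CD90+/CD133+ cells and 32860 to 38981 in CD90+/CD133- cells, against 44035 to 51509 in CD90-/CD133- cells, and the part of this shift in the results below was not tested. The lower sum came from the bright keratins, with medians of 11418 and 12407 against 18505 for KRT18, 4997 and 4836 against 9183 for KRT8, and 6828 and 7576 against 10623 for KRT7. Medians of EPCAM (7446 and 7502 against 5930), PAX8 (865 and 833 against 658) and MSLN (255 and 276 against 229) lay the other way. Of 6 hepatocyte markers, ALB and FGB were under the floor on all 15 arrays, TTR and SERPINA1 were above it on all 15, and APOA1 and CYP2E1 fell on both sides. Summed intensity of the 6 was 161 to 238 in CD90+/CD133+ cells, 144 to 166 in CD90+/CD133- cells and 153 to 169 in CD90-/CD133- cells. SERPINA1 had medians of 46.8, 38.1 and 28.3 in the same order of fractions, and TTR had medians of 73.4, 63.1 and 70.2. The log2 gap between 3′ and 5′ control probes of GAPDH, a sign of RNA quality, was 0.0118 to 0.118 in CD90+/CD133+ cells, 0.0902 to 0.268 in CD90+/CD133- cells and 0.0233 to 0.0932 in CD90-/CD133- cells. The gap was larger for ACTB, at 1.03 to 2.76, 1.82 to 3.31 and 1.31 to 2.17 in the same order of fractions. Both gaps reached their highest values in CD90+/CD133- cells, and their part in the results was not tested. Array medians were 29.4 to 32.4, and 32.7% to 34.5% of probe sets lay under the floor. Array number limits the precision of each value, and p-values measure only the spread between these arrays.

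With arrays paired by replicate number, both CD90+ fractions had more ASS1 and ODC1 RNA and less CPS1 and NAGS RNA relative to CD90-/CD133- cells. In CD90+/CD133+ cells, 3 of the 8 genes above the floor were higher (ASS1, ODC1 and ASL), 3 were lower (CPS1, NAGS and SLC25A13) and 2 did not pass the test. In CD90+/CD133- cells, 2 were higher (ASS1 and ODC1), 3 were lower (CPS1, NAGS and ARG2) and 3 did not pass. These counts read each gene from its brightest probe set in 1 limma fit over all 15 arrays with the replicate number as a block, at a Benjamini-Hochberg adjusted p under 0.05. Without the block, 0 members were higher in either comparison, and 1 was lower in CD90+/CD133+ cells and 2 in CD90+/CD133- cells. The ODC1 call in CD90+/CD133+ cells was also lost in 11 of 20 fits with an array or replicate number left out. The background was broad, since 39.5% of 16393 genes were called in CD90+/CD133+ against CD90-/CD133- cells (18.1% higher, 21.4% lower) and 40.9% in CD90+/CD133- against CD90-/CD133- cells (18.7% higher, 22.3% lower). Counting probe sets, 8 of 13 were called in the CD90+/CD133+ comparison (3 higher, 5 lower) beside 33.7% of all 40004 tested (15.2% higher, 18.5% lower). In the CD90+/CD133- comparison 6 of 13 were called (2 higher, 4 lower) beside 35.6% (18% higher, 17.6% lower). The median log2 fold change of the 8 genes was -0.12 and -0.21 in the CD90+/CD133+ and CD90+/CD133- comparisons, beside 0.00 for all probe sets in both. Their median absolute log2 change was 0.37 and 0.36, beside 0.18 and 0.18 for all genes by their brightest probe sets. Both comparisons share the 5 CD90-/CD133- arrays, so their likeness is in part built in. In these bulk samples, fewer cells of a type and less RNA per cell cannot be told apart.

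**Figure D1:**
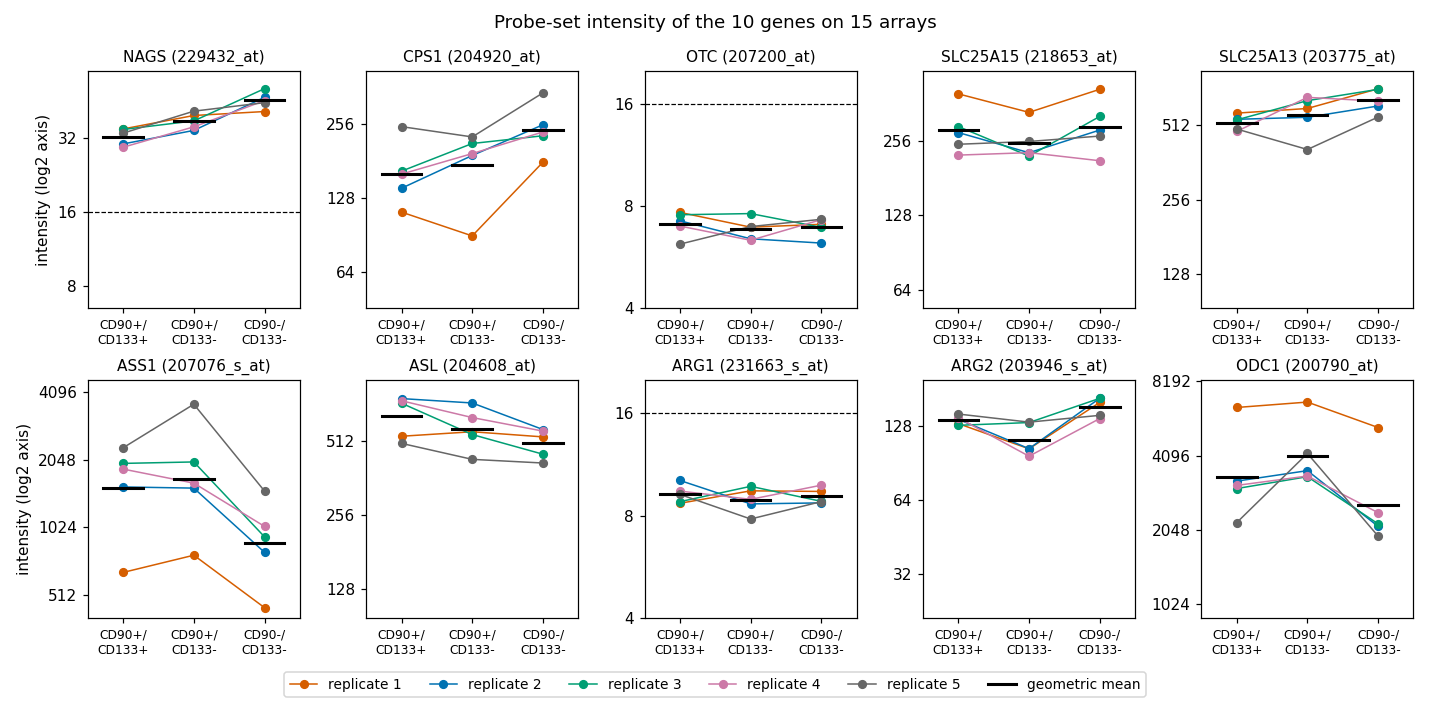
Intensity (log2 axis) of the brightest probe set of each of the 10 genes by fraction (CD90+/CD133+ left, CD90+/CD133- centre, CD90-/CD133- right), with lines joining arrays of one replicate number, black bars at geometric means and the floor of 16 dashed where it falls in range. ASS1 and ODC1 lines drop toward CD90-/CD133- cells in all 5 replicates, CPS1 and NAGS lines climb toward them, and OTC and ARG1 stay under the floor on all 15 arrays.

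NAGS, which makes the activator of CPS1, had intensities of 34.8, 30.2, 34.6, 29.3 and 33.4 in CD90+/CD133+ cells and 39.4, 34.3, 37.5, 35.5 and 41.0 in CD90+/CD133- cells for replicates 1 to 5. The CD90-/CD133- arrays read 40.9, 46.7, 50.7, 45.3 and 44.4. CD90+/CD133+ values all lay below every CD90-/CD133- value, whereas 1 CD90+/CD133- array crossed into the CD90-/CD133- range. NAGS was 1.41-fold lower in CD90+/CD133+ relative to CD90-/CD133- cells (log2 fold change -0.49 with an SE, the standard error of the fit, of 0.069, adjusted p = 2.60e-04). In CD90+/CD133- cells it was 1.21-fold lower (log2 fold change -0.28 with an SE of 0.069, adjusted p = 0.00824). It was lower in all 5 same-numbered pairs in both comparisons. Both calls held without the replicate block (adjusted p = 2.39e-04 and 0.0118), but the CD90+/CD133- call was lost without replicate 2 (adjusted p = 0.0518). NAGS lay close to the floor on every array, where the scale used can understate a change.

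CPS1, the ammonia-fixing enzyme of the cycle, had 112, 139.9, 164, 159.7 and 249 on its brightest probe set (204920_at) in CD90+/CD133+ cells and 89.6, 190.1, 213, 193 and 226 in CD90+/CD133- cells. CD90-/CD133- cells had 179, 253, 229, 237 and 341. Each replicate's CPS1 value was highest in its CD90-/CD133- array, although the ranges of the fractions overlapped because replicate 1 was low and replicate 5 high in every fraction. CPS1 was 1.52-fold lower in CD90+/CD133+ cells (log2 fold change -0.61 with an SE of 0.12, adjusted p = 0.00242) and 1.39-fold lower in CD90+/CD133- cells (log2 fold change -0.48 with an SE of 0.12, adjusted p = 0.00899). The second probe set (217564_s_at) read 43.1, 71.5, 52.6, 66.6 and 99.1 in CD90+/CD133+ cells and 43.9, 76.4, 78.3, 79.6 and 112 in CD90+/CD133- cells. It read 91.6, 127, 108, 121 and 145 in CD90-/CD133- cells, so both probe sets moved the same way. By this probe set CPS1 was 1.83-fold lower in CD90+/CD133+ cells (adjusted p = 5.82e-05) and 1.56-fold lower in CD90+/CD133- cells (adjusted p = 4.21e-04). Without the replicate block the brightest probe set passed in neither comparison (adjusted p = 0.128 and 0.230), while 217564_s_at kept its call in CD90+/CD133+ cells (adjusted p = 0.0198) and not in CD90+/CD133- cells (adjusted p = 0.0747).

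OTC, the next enzyme, was under the floor on all 15 arrays, with values of 6.17 to 7.66 on its single probe set, and no fold change was computed. The ornithine-citrulline carrier SLC25A15 was measured at 399, 278, 294, 225 and 249 in CD90+/CD133+ cells (218653_at), at 335, 229.9, 223, 230.1 and 255 in CD90+/CD133- cells, and at 416, 284, 323, 213 and 269 in CD90-/CD133- cells. The 3 fractions overlapped throughout. Its log2 fold change was -0.05 in CD90+/CD133+ cells (SE 0.082, adjusted p = 0.695) and -0.22 in CD90+/CD133- cells (SE 0.082, adjusted p = 0.0556). The value in CD90+/CD133- cells passed under 5 of 14 other settings, among them quantile normalization (log2 fold change -0.24, adjusted p = 0.0487). Its second probe set, 222705_s_at, ran between 25.7 and 57.1 and passed in no comparison.

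The aspartate-glutamate carrier SLC25A13 had 575, 542, 539, 484 and 495 in CD90+/CD133+ cells (203775_at), 600.2, 553, 646, 666 and 409 in CD90+/CD133- cells and 722, 614, 718, 643 and 554 in CD90-/CD133- cells. It was 1.23-fold lower in CD90+/CD133+ cells in all 5 pairs (log2 fold change -0.30 with an SE of 0.086, adjusted p = 0.0210). The groups overlapped by a single array on either side. This call was lost without the replicate block (adjusted p = 0.1005) and in 8 of 20 fits that left out 1 array or 1 replicate number. In CD90+/CD133- cells the log2 fold change was -0.19 and did not pass (adjusted p = 0.116). A dimmer probe set of SLC25A13, 229081_at, was lower in CD90+/CD133+ relative to CD90-/CD133- cells (log2 fold change -0.33, adjusted p = 0.0355, and 0.0635 without the block), and 229061_s_at passed in no comparison.

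ASS1, which commits citrulline to arginine synthesis, showed the largest rise among the members in both comparisons with CD90-/CD133- cells. Its single probe set (207076_s_at) read 645, 1548, 1970.0, 1859 and 2312 in CD90+/CD133+ cells and 769, 1529, 1999.6, 1609 and 3612 in CD90+/CD133- cells, against 449, 792, 928, 1033 and 1483 in CD90-/CD133- cells. Replicate 1 was the lowest and replicate 5 the highest array of each fraction, so the fractions overlapped, yet within every replicate number both CD90+ arrays exceeded the CD90-/CD133- array. ASS1 was 1.76-fold higher in CD90+/CD133+ cells (log2 fold change 0.81 with an SE of 0.11, adjusted p = 2.49e-04) and 1.93-fold higher in CD90+/CD133- cells (log2 fold change 0.95 with an SE of 0.11, adjusted p = 8.38e-05). The same-numbered differences ran between 0.52 and 1.09 log2 units in CD90+/CD133+ cells and between 0.64 and 1.28 in CD90+/CD133- cells. Both calls held in all 20 fits with an array or replicate number left out, with log2 fold changes of 0.74 to 0.90 in CD90+/CD133+ cells and 0.85 to 1.03 in CD90+/CD133- cells. They rested on the pairing, because without the replicate block neither passed (adjusted p = 0.222 and 0.136). ASS1 has processed pseudogenes, and whether they add to this probe set was not tested.

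ASL, which follows ASS1 and releases fumarate, had 533, 758, 726, 743 and 499 in CD90+/CD133+ cells, 556, 728, 542, 635 and 429.8 in CD90+/CD133- cells and 530.2, 568, 451, 559.7 and 415 in CD90-/CD133- cells. Its CD90+/CD133+ values were level with the CD90-/CD133- value in replicate 1 (a difference of 0.0087 log2 units) and above it in the other replicates. ASL was 1.28-fold higher in CD90+/CD133+ cells (log2 fold change 0.36 with an SE of 0.083, adjusted p = 0.00664, and 0.135 without the replicate block). In CD90+/CD133- cells the log2 fold change was 0.18 (SE 0.083, adjusted p = 0.115), with all 5 pairs on the positive side.

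Of the arginases, ARG1, the hepatocyte enzyme, was under the floor on every array by all 4 of its probe sets, with values between 5 and 10.2, so it had no measurable difference here. ARG2, the mitochondrial form, read 131, 136, 129, 138 and 143 in CD90+/CD133+ cells (203946_s_at), 104, 104, 132, 96.7 and 132.9 in CD90+/CD133- cells and 159.8, 166, 166, 137 and 142 in CD90-/CD133- cells. All CD90+/CD133- values lay below all CD90-/CD133- values. ARG2 was 1.36-fold lower in CD90+/CD133- cells (log2 fold change -0.45 with an SE of 0.092, adjusted p = 0.00300, and 0.00323 without the block). In CD90+/CD133+ cells its log2 fold change was -0.18 and did not pass (SE 0.092, adjusted p = 0.166). The other ARG2 probe set, 203945_at, did not share this, with log2 fold changes of -0.02 and 0.01 in the CD90+/CD133+ and CD90+/CD133- comparisons (adjusted p = 0.939 and 0.980), so the ARG2 result depends on which probe set is read.

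ODC1, the first enzyme of polyamine synthesis, had 6423, 3227, 3010.4, 3100.4 and 2189 in CD90+/CD133+ cells and 6756, 3559, 3364, 3384 and 4179 in CD90+/CD133- cells, against 5326, 2114, 2164, 2402 and 1929 in CD90-/CD133- cells. Replicate 1 stood far above the other numbers in all fractions. Within each number, the CD90+/CD133- array was the highest and the CD90-/CD133- array the lowest. ODC1 was 1.59-fold higher in CD90+/CD133- cells (log2 fold change 0.67 with an SE of 0.12, adjusted p = 0.00112). This call held in all 20 fits with an array or number left out, with log2 fold changes of 0.53 to 0.75. It was 1.30-fold higher in CD90+/CD133+ cells (log2 fold change 0.38 with an SE of 0.12, adjusted p = 0.0277), a call that was lost in 11 of the 20. Without replicate 2, for example, the log2 fold change in CD90+/CD133+ cells was 0.32 (adjusted p = 0.135). Without the replicate block ODC1 passed in neither comparison (adjusted p = 0.480 in CD90+/CD133+ cells and 0.160 in CD90+/CD133- cells).

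**Figure D2:**
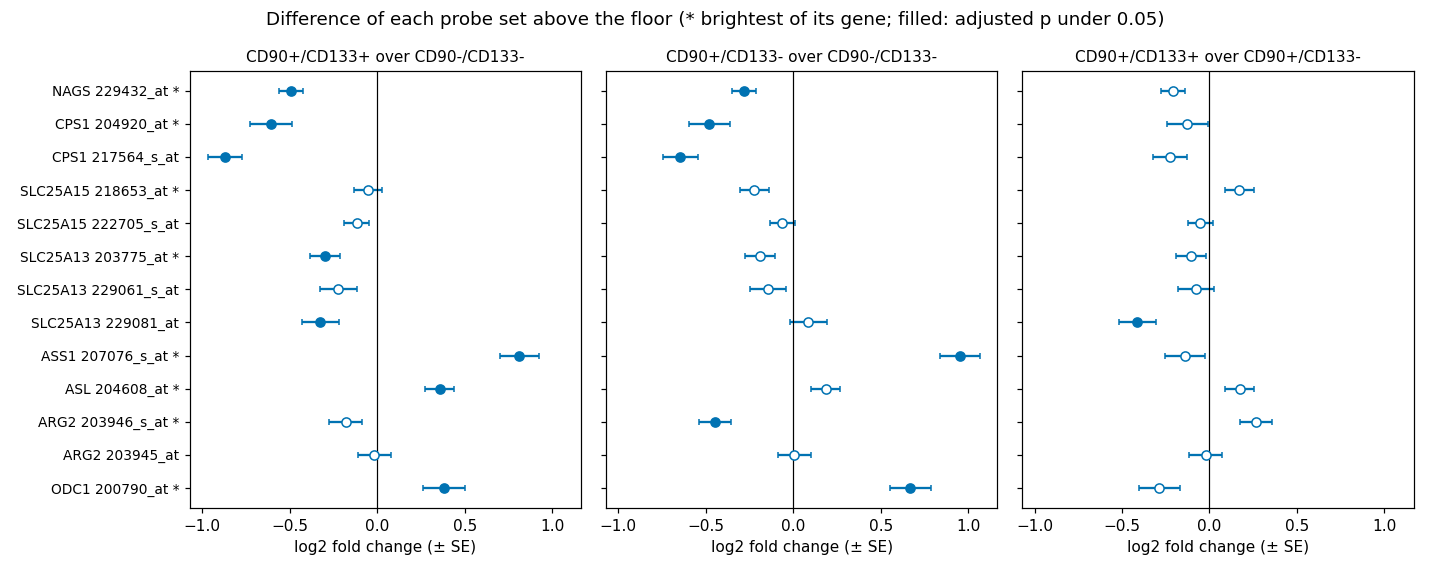
Fitted log2 fold changes, with bars of 1 SE, of the 13 probe sets above the floor in CD90+/CD133+ over CD90-/CD133-, CD90+/CD133- over CD90-/CD133- and CD90+/CD133+ over CD90+/CD133- cells, with filled points at an adjusted p under 0.05 and an asterisk at each gene's brightest probe set. ASS1 (0.81 and 0.95) and the CPS1 probe sets (-0.61 and -0.48 for 204920_at) lie on opposite sides in the left and middle panels, and 1 point is filled in the right panel.

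The CD90+ fractions were also set against each other. None of the 8 genes was called between CD90+/CD133+ and CD90+/CD133- cells by its brightest probe set in limma, beside 9.04% of all genes (4.67% higher, 4.37% lower), and 3 genes had an unadjusted p under 0.05. These were ARG2 (log2 fold change 0.26, adjusted p = 0.0989), NAGS (-0.21, adjusted p = 0.0837) and ODC1 (-0.29, adjusted p = 0.153). NAGS and ODC1 were lower in CD90+/CD133+ cells in all 5 pairs. Of the 13 probe sets, 1 was called, beside 8.86% of all probe sets (3.4% higher, 5.46% lower). This was 229081_at of SLC25A13, at 29.9, 24.6, 29.6, 29.1 and 20.2 in CD90+/CD133+ cells against 37.1, 33.6, 32.6, 34.5 and 38.3 in CD90+/CD133- cells. The fractions did not overlap on this probe set (log2 fold change -0.41 with an SE of 0.11, adjusted p = 0.0394), which lay near the floor and did not pass without the block (adjusted p = 0.101). The brightest SLC25A13 probe set differed by -0.11 (adjusted p = 0.491).

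Counts of genes without overlap between fractions were small and lay near the background. NAGS was the only one of the 8 genes whose CD90+/CD133+ and CD90-/CD133- arrays did not overlap, beside 20.3% of all genes, and ARG2 was the only one between CD90+/CD133- and CD90-/CD133- cells, beside 19.3%. None separated the CD90+ fractions, beside 3.74%. Counting instead the genes whose 5 same-numbered differences all ran one way gave 6 of 8 members in CD90+/CD133+ over CD90-/CD133- cells beside 44.1% of all genes, 6 of 8 in CD90+/CD133- over CD90-/CD133- cells beside 41.5%, and 2 of 8 between the CD90+ fractions beside 23.7%.

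The members differed in how much of their variance followed the replicate number rather than the fraction. For ASS1, 67.1% of the variance over 15 arrays went with the replicate number and 29.6% with the fraction, leaving 3.38%. ODC1 (68.2% and 24.6%), CPS1 (59.5% and 30.4%), ASL (58.9% and 28.0%), SLC25A13 (43.4% and 33.0%) and SLC25A15 (78.1% and 10.7%) were likewise led by the replicate number. NAGS and ARG2 were led by the fraction, with 80.4% and 64.9% against 7.63% and 10.9% for the number. Each gene was read from its brightest probe set, and the other ARG2 probe set, 203945_at, showed no difference that passed between fractions. The medians over all genes were 31.9% for the number and 29.6% for the fraction. Pearson correlations between members are given as descriptions over 15 arrays linked by replicate number. Some changed sign once each number was centred, and others kept it. Centring each replicate number keeps the differences between fractions, so centred values in part repeat the fold changes above. ASS1 and ODC1 correlated at -0.33 over the arrays as they stand and at 0.92 once each replicate number was centred. ASS1 and CPS1 correlated at 0.33 and then at -0.82, and ASL and NAGS at -0.71 and then at -0.89. The genes most like each member were sought on values that were not centred, so their likeness can follow the replicate number as well as the fraction. Among 9987 genes (9988 for NAGS), those most like ASS1 over the 15 arrays were ITGB2-AS1 (r = 0.97), TRIM4 (0.96) and PLXDC2 (0.96). For CPS1 they were CHMP4B (0.97), SH3BGRL (0.96) and BBX (0.95), and for ODC1 they were THADA (0.97), HYCC1 (0.95) and RRP12 (0.95). FOXO1 (0.95), KIAA0040 (0.95) and PPM1D (0.94) came closest to NAGS, BNIP3 (0.92), CPPED1 (0.92) and RNF115 (0.91) to ASL, HNRNPA2B1 (0.94), CAPN2 (0.90) and UHRF1 (0.88) to SLC25A13, and UQCC1 (0.90), PLPP5 (0.87) and MYEOV (0.86) to ARG2.

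Because neighbouring genes can move together in a cancer line, each member was set beside its 30 nearest expressed genes on the chromosome. ASS1 stood above its surroundings on chromosome 9. Its neighbours had a median log2 fold change of -0.17 in CD90+/CD133+ cells and -0.09 in CD90+/CD133- cells, and 0 of 30 exceeded ASS1 in either comparison. ODC1 on chromosome 2 lay among genes that were also higher. Its neighbours had medians of 0.22 and 0.31, with 15 and 18 of 30 called higher, and 12 and 5 of the 30 exceeded ODC1 in CD90+/CD133+ and CD90+/CD133- cells. CPS1, also on chromosome 2, fell below 24 and 25 of its 30 neighbours, whose medians were 0.06 and 0.11. NAGS on chromosome 17 lay among neighbours with medians of -0.17 and -0.20, and 26 and 20 of the 30 were above it. ARG2 on chromosome 14 was below 28 of 30 neighbours in CD90+/CD133- cells, and ASL on chromosome 7 was above 28 of 30 in CD90+/CD133+ cells. SLC25A15 on chromosome 13 had neighbours with medians of -0.37 and -0.19.

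**Figure D3:**
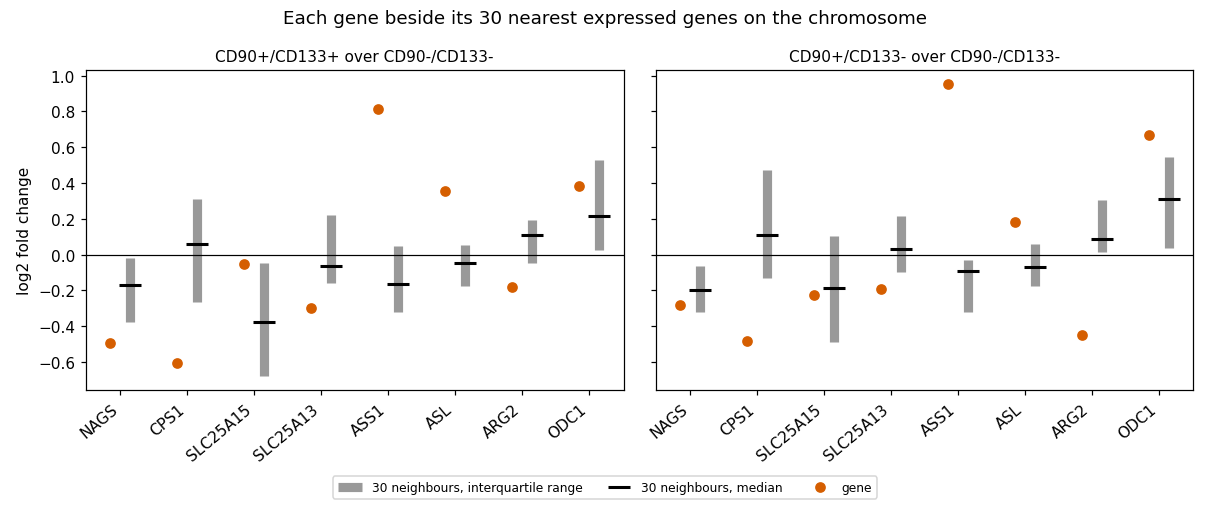
Log2 fold change of each member above the floor (orange points) beside the median (black) and interquartile range (grey) of its 30 nearest expressed genes, in CD90+/CD133+ over CD90-/CD133- cells and CD90+/CD133- over CD90-/CD133- cells. ASS1 lies far above its neighbours in both panels, whereas the neighbours of ODC1 are themselves shifted upward (medians 0.22 and 0.31).

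Promoter sequence was read for the members because, with arrays paired by replicate number, ASS1 and ODC1 were higher and CPS1 lower in both CD90+ fractions. RefSeq start sites of GRCh38.p14 gave 14 windows for the 10 genes, each from 250 bases before to 50 after a start. The E-box CACGTG, a palindrome that MYC-type and USF-type factors can bind, was in 4 windows of 4 genes (ASS1, ODC1, SLC25A13 and CPS1), beside 7.26% of 35116 windows of all genes. These genes include members that were higher and members that were lower. The stretches below show the E-box in capitals, 5′ to 3′ on the strand of the gene, within 30 bases. In the order listed, the E-box began 71, 29 and 154 bases before the start, 5 bases after a start, and 46 bases before a start.
ASS1, chr9:130444878-130444907, + strand: gcgcgtccccgcCACGTGtccccggtcacc
ODC1, chr2:10448024-10448053, - strand: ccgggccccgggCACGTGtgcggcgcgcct
SLC25A13, chr7:96322235-96322264, - strand: gcgcagcggggtCACGTGtccctgtccagc
ODC1, chr2:10447990-10448019, - strand: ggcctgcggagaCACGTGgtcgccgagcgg
CPS1, chr2:210519660-210519689, + strand: tctagacacaggCACGTGacccaagcccca

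ASS1 and CPS1 have other start sites as well, and the 250 bases before the most upstream one of each are shown because these genes changed most in opposite directions. The shorter hypoxia-response cores ACGTG and GCGTG, searched on both strands, of which ACGTG is part of the E-box, occurred in 48.4% of all windows and in 8 of the 14 windows of the members (7 genes), among them the second window of ASS1, with 2 matches, and of CPS1, with 3. Because the E-box is a palindrome, each one counts as 2 matches. Both matches in ASS1 and 2 of the 3 in CPS1 are therefore the 1 E-box of that window, shown above. The cores were in neither of the stretches printed here. The ASS1 stretch was 68.4% G or C and the CPS1 stretch 48.4%, beside a median of 58.7% over the full windows of all genes. No capitals are used, as nothing was matched.
ASS1, chr9:130444457-130444706, + strand: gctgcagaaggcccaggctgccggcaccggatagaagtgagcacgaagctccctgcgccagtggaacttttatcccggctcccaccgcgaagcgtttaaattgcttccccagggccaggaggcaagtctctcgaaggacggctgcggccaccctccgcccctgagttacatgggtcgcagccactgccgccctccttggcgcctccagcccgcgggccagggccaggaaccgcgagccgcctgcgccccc
CPS1, chr2:210477435-210477684, + strand: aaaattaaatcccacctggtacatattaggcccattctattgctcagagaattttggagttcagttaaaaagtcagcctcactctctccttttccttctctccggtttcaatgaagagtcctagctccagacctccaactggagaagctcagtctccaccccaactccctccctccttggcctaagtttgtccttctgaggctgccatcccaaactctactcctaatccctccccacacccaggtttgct

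The genes that feed and drain the cycle were read from 6 lists with 70 genes, of which 60 were tested, 4 were under the floor on all arrays (AMPD1, SLC14A1, SLC14A2 and SLC25A18) and 6 were not analysed here. In CD90+/CD133+ cells 14 of the 60 were higher and 12 lower than in CD90-/CD133- cells, a called share of 43.3%, and in CD90+/CD133- cells 9 were higher and 15 lower, a share of 40%. These shares lie near the background of 39.5% and 40.9%. For the counts of each list below, the shares over all genes were 18.1% higher and 21.4% lower in CD90+/CD133+ cells. In CD90+/CD133- cells they were 18.7% higher and 22.3% lower. Without the replicate block the counts were 9 higher and 8 lower in CD90+/CD133+ cells and 7 higher and 14 lower in CD90+/CD133- cells. With each replicate number left out in turn, there were 11 to 13 higher and 9 to 13 lower in CD90+/CD133+ cells, and 8 to 10 higher and 11 to 15 lower in CD90+/CD133- cells.

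Of 9 tested genes of ammonia release and fixation, 2 were higher and 4 lower in CD90+/CD133+ cells, and 3 were higher and 4 lower in CD90+/CD133- cells. GLUL, the glutamine synthetase that fixes ammonia onto glutamate, was 2.72-fold higher in CD90+/CD133+ cells and 3.15-fold higher in CD90+/CD133- cells (adjusted p = 2.34e-05 and 9.18e-06). GLUD1, the glutamate dehydrogenase that can run in either direction, was 1.51-fold and 1.68-fold higher. CAD, which uses glutamine nitrogen to start pyrimidine synthesis, passed in CD90+/CD133- cells (log2 fold change 0.24, adjusted p = 0.0375, and 0.0774 without the block), a call lost without any one of replicates 1, 2, 4 and 5. All 4 lower genes encode enzymes of reactions that release ammonia. ADA, adenosine deaminase, ranged from 52.8 to 107 in CD90+/CD133+ cells and from 55.7 to 99.3 in CD90+/CD133- cells, against 171 to 220.3 in CD90-/CD133- cells. It was 2.51-fold and 2.60-fold lower (adjusted p = 7.06e-06 and 5.40e-06). The AMP deaminases AMPD2 (log2 fold changes -0.79 and -0.69) and AMPD3 (-0.76 and -0.61) and GLDC of the glycine cleavage system (-0.48 and -0.98) were also lower in CD90+/CD133+ and CD90+/CD133- cells. The AMPD3 call in CD90+/CD133- cells was lost without any one of replicates 1, 2 and 4. GLDC was the only gene of this list called between the CD90+ fractions, at 70.6 to 89.7 in CD90+/CD133+ cells against 48.7 to 65.7 in CD90+/CD133- cells (log2 fold change 0.50, adjusted p = 0.00817). ASNS, asparagine synthetase, ran from 359 to 2326 in CD90+/CD133- cells and passed in no comparison.

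**Figure D4:**
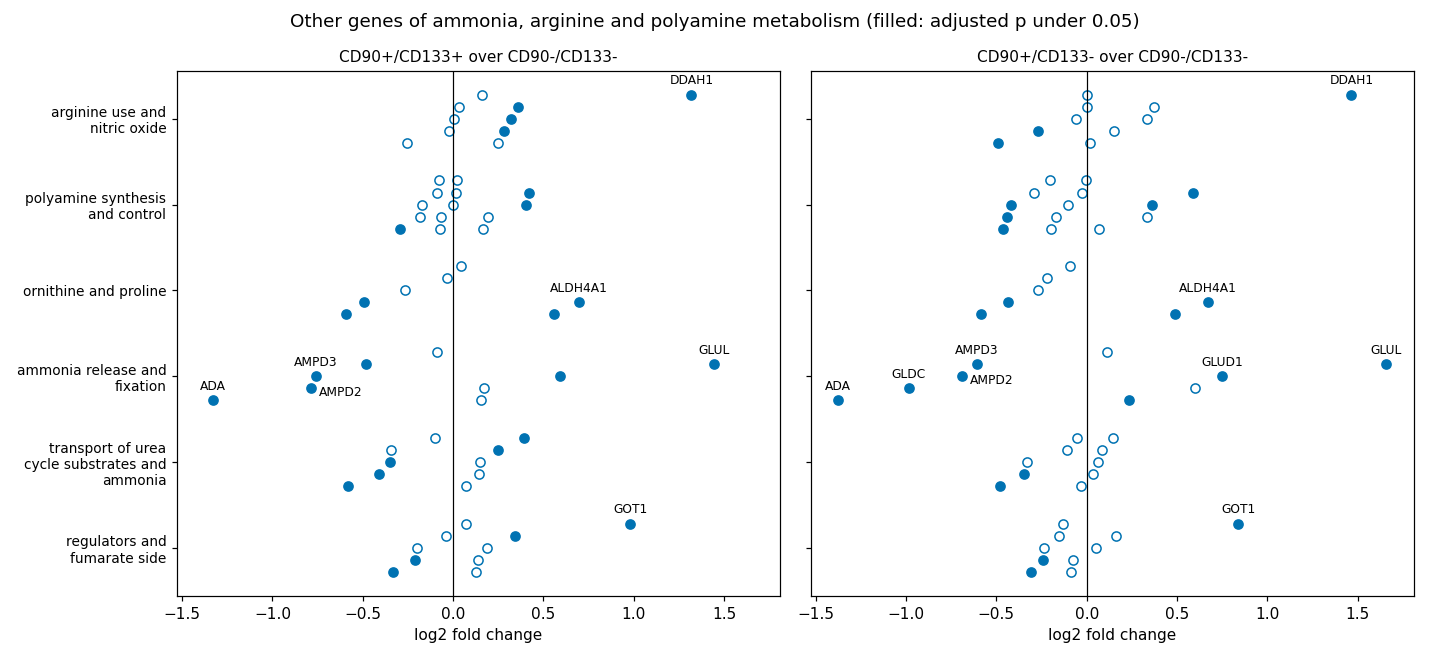
Log2 fold change of the 60 tested genes of the 6 lists in CD90+/CD133+ over CD90-/CD133- cells and CD90+/CD133- over CD90-/CD133- cells, filled at an adjusted p under 0.05, with called genes beyond 0.6 log2 units named. GLUL and DDAH1 lie farthest to the right and ADA farthest to the left in both panels.

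The polyamine list, which surrounds ODC1, had 14 tested genes. In CD90+/CD133+ cells 2 were higher and 1 lower, and in CD90+/CD133- cells 2 were higher and 3 lower. AZIN1, the antizyme inhibitor that protects ornithine decarboxylase from degradation, was 1.34-fold higher in CD90+/CD133+ cells (adjusted p = 1.52e-04, and 0.0731 without the block) and 1.503-fold higher in CD90+/CD133- cells (adjusted p = 1.45e-05). OAZ2, an antizyme that inhibits that enzyme, was lower in CD90+/CD133- cells (log2 fold change -0.46, adjusted p = 0.00125). SRM, spermidine synthase, was 1.32-fold higher in CD90+/CD133+ cells and 1.28-fold higher in CD90+/CD133- cells, and both calls were lost without the block (adjusted p = 0.390 and 0.442). SAT2, named for its likeness to a polyamine acetyltransferase, was lower in both (log2 fold changes -0.29 and -0.42), and DHPS, which uses spermidine to modify eIF5A, was lower in CD90+/CD133- cells (-0.44). OAZ2 (log2 fold change 0.39, adjusted p = 0.0214) and DHPS (0.63, adjusted p = 0.0133) were higher in CD90+/CD133+ relative to CD90+/CD133- cells. Both of these calls between the CD90+ fractions were lost without replicate 4 and without replicate 5, and that of OAZ2 also without replicates 1 and 3 and without the block (adjusted p = 0.116). The SAT2 call in CD90+/CD133+ cells was lost without the block (adjusted p = 0.180) and without any one of replicates 1, 2 and 4, and the DHPS call in CD90+/CD133- cells without any one of replicates 1, 4 and 5.

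Ornithine and proline metabolism had 7 tested genes, with 2 higher and 2 lower in either CD90+ fraction and none called between them. OAT, which interconverts ornithine and glutamate semialdehyde, was at 973 to 1207 in CD90+/CD133+ cells and 904 to 1484 in CD90+/CD133- cells, against 1209 to 1842 in CD90-/CD133- cells (log2 fold changes -0.59 and -0.44, adjusted p = 0.00197 and 0.0110). ALDH18A1, which makes glutamate semialdehyde from glutamate, was 1.47-fold and 1.40-fold higher (adjusted p = 8.78e-05 and 2.05e-04). ALDH4A1, which oxidises it back to glutamate, was 1.62-fold and 1.59-fold higher. PYCR1, the last step to proline, was lower (log2 fold changes -0.50 and -0.59), but both calls were lost without any one of replicates 1, 2, 3 and 4, and that in CD90+/CD133+ cells without the block (adjusted p = 0.0817). The OAT call in CD90+/CD133- cells was lost without replicate 4.

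Of 10 genes of arginine use and nitric oxide synthesis, 4 were higher and none lower in CD90+/CD133+ cells, beside 18.1% and 21.4% of all genes. In CD90+/CD133- cells 1 was higher and 2 were lower, beside 18.7% and 22.3%. DDAH1, which hydrolyses methylarginines that inhibit nitric oxide synthases, ranged from 1780.4 to 2105 in CD90+/CD133+ cells and from 1737 to 2394 in CD90+/CD133- cells, against 698 to 894 in CD90-/CD133- cells. It was 2.49-fold and 2.76-fold higher (adjusted p = 1.00e-06 and 5.19e-07). The other 3 higher genes in CD90+/CD133+ cells were DDAH2 (log2 fold change 0.36), GATM (0.32), which makes the creatine precursor from arginine, and NOS1 (0.28). In CD90+/CD133- cells PRMT1, the main arginine methyltransferase, was 1.40-fold lower (adjusted p = 0.00150) and GAMT, the next creatine enzyme, had a log2 fold change of -0.27 (adjusted p = 0.0213). GATM and NOS1 were also higher in CD90+/CD133+ relative to CD90+/CD133- cells (log2 fold changes 0.31 and 0.34), near the floor and not without the block (adjusted p = 0.106 and 0.134). Apart from DDAH1 and PRMT1, every call of this list was lost without at least 1 replicate number, replicate 4 for GATM in CD90+/CD133+ cells and several for the others. DDAH2 and NOS1 also lost theirs in CD90+/CD133+ cells without the block (adjusted p = 0.412 and 0.0780).

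Of 10 tested regulators and fumarate-side genes, 2 were higher and 2 lower in CD90+/CD133+ cells, and 1 was higher and 2 lower in CD90+/CD133- cells. The cytosolic transaminase GOT1, which makes aspartate from oxaloacetate or the reverse, was at 498 to 582 in CD90+/CD133+ cells and 442 to 641 in CD90+/CD133- cells, against 231 to 358 in CD90-/CD133- cells. It was 1.97-fold and 1.79-fold higher (adjusted p = 2.06e-05 and 5.81e-05). Its mitochondrial counterpart GOT2 was 1.26-fold and 1.24-fold lower (adjusted p = 0.00542 and 0.00814, and 0.0648 and 0.0831 without the block). Cytosolic malate dehydrogenase MDH1 was 1.27-fold higher in CD90+/CD133+ cells (adjusted p = 0.00170) and did not pass in CD90+/CD133- cells (log2 fold change 0.05, adjusted p = 0.583), and mitochondrial MDH2 was 1.16-fold and 1.18-fold lower (adjusted p = 0.00216 and 9.29e-04). MDH1 was also higher in CD90+/CD133+ relative to CD90+/CD133- cells (log2 fold change 0.29, adjusted p = 0.0236, and 0.128 without the block), a call lost without any one of replicates 1, 3, 4 and 5. SIRT5, a mitochondrial deacylase that acts on CPS1, had log2 fold changes of -0.20 and -0.15 and was not called.

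Among 10 tested transporters, 2 were higher and 3 lower in CD90+/CD133+ cells, and none was higher and 2 were lower in CD90+/CD133- cells. SLC25A12, the sister carrier of SLC25A13 for aspartate and glutamate, was 1.499-fold lower in CD90+/CD133+ cells and 1.39-fold lower in CD90+/CD133- cells (adjusted p = 3.43e-04 and 0.00122). SLC25A22, a mitochondrial glutamate carrier, was lower by about the same amount in both (log2 fold changes -0.35 and -0.35). SLC7A1, the cationic amino acid transporter that takes up arginine, had a log2 fold change of -0.41 in CD90+/CD133+ cells (adjusted p = 0.0280, and 0.111 without the block). Higher in CD90+/CD133+ cells were SLC25A29, a mitochondrial carrier of basic amino acids (log2 fold change 0.39, adjusted p = 0.0145, and 0.134 without the block), and the ammonia channel RHCG (0.25, adjusted p = 0.0348). RHCG lay at 31.3 to 42.1 in CD90+/CD133+ cells against 26.7 to 32.5 in CD90-/CD133- cells, near the floor. Its relative RHBG was the only transporter called between the CD90+ fractions, at 93.5 to 117 in CD90+/CD133+ cells against 73.6 to 98.7 in CD90+/CD133- cells (log2 fold change 0.26, adjusted p = 0.0292, and 0.179 without the block). The calls of SLC7A1 (without replicates 1 to 4), SLC25A29 (2 and 5), RHCG (2, 3 and 4) and RHBG (1, 2, 3 and 5) were each lost when any one of the replicate numbers in parentheses was left out. Over all 6 lists, 7 of 60 genes were higher and none was lower in CD90+/CD133+ relative to CD90+/CD133- cells. This called share of 11.7% stood beside 9.04% of all genes (4.67% higher, 4.37% lower). By an unblocked fit 2 were higher, and with a replicate number left out 1 to 4 were.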

How the data were processed

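Total RNA of sorted PEO1 fractions was hybridized as biotin-labelled cRNA to Affymetrix U133 Plus 2.0 arrays. The deposited table holds 1 linear intensity per probe set and array, after normalization by the authors with the cross-correlation method, and its lowest value is 5. For the summary of probes, software is not given in the sources used here. In the methods, a gene is called from a 1.5-fold ratio of averages.

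Intensities were raised to a floor of 16 and put on the log2 scale, which understates changes of dim genes. After 62 control probe sets and those at the floor on all 15 arrays were left out, 40004 were tested. Platform annotation named 1 gene for 41091 probe sets, several for 1801 and none for 11777, and 41037 matched RefSeq by gene number. limma 3.58.1 under R 4.3.3 (functions lmFit and eBayes, a 2-sided test with Benjamini-Hochberg adjustment over the 40004) fitted fraction plus replicate number over all arrays and was tested on simulated data. Genes were read from the probe set with the highest mean. Fold changes run as the comparison is named, and "lower" folds are inverted.

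Replicate numbers were taken to pair the arrays, and labels share a code within a number. Deviations of same-numbered arrays from their fraction means correlated at 0.120 to 0.758 (all over 0.1). Means for different numbers were -0.115 to -0.0936, but removing a fraction's mean pushes these negative when same-numbered values are positive. Different-numbered values reached 0.150 in CD90+/CD133+ over CD90-/CD133- cells, 0.155 in CD90+/CD133- over CD90-/CD133- cells and 0.274 between the CD90+ fractions. The lowest same-numbered values there were 0.152, 0.120 and 0.240. Every array of the first-named fraction correlated best with its own number in the other fraction (5 of 5 per comparison). Replicates 4 and 5 share one code. No arrays held identical values. The methods speak of biological replicates for the CD90+/CD133- and CD90-/CD133- fractions, and they do not say whether any were separate cultures.

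The members and lists were chosen with earlier results of these data known. Named were all members, up to 4 called genes per list with the largest change or at a member's step, the sort markers and the 3 genes most like each called member, and GATM, GAMT, NOS1, MDH1, RHBG, RHCG, SLC25A29, ASNS and SIRT5 were named after their values were seen where they fell outside that rule. Alternatives were other blocks, floors, filters, normalizations, probe-set rules, an intensity trend, the methods' fold, a 2-sample t-test, and arrays left out. Unblocked and left-out fits of the lists were added after seeing the data. CD68 was not analysed here.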

Additional observations from a re-analysis of the deposited data

Results flagged for a closer look

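Of 39 groups of 5 arrays (13 probe sets in 3 fractions), 3 held an array far from the others by Dixon's criterion, and chance flags about 1 in 20 groups. All 3 were replicate 1. ODC1 in CD90-/CD133- cells had 5326 in replicate 1, with the nearest array at 2402. CPS1 (204920_at) in CD90+/CD133- cells had 89.6 in replicate 1, with the nearest at 190.1. SLC25A15 (222705_s_at) in CD90-/CD133- cells had 57.1 in replicate 1, with the nearest at 35.1. Without replicate 1, ODC1 was no longer called in CD90+/CD133+ over CD90-/CD133- cells (log2 fold change 0.41, adjusted p = 0.0543 from limma).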

How the results depend on the processing

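No change of direction past the threshold was seen in any alternative. Of 810 values of single members under alternatives, 750 kept direction and side of the threshold, 44 lost a call and 16 gained one. Without the replicate block, the counts of higher and lower members were 0 and 1 in CD90+/CD133+ over CD90-/CD133- cells and 0 and 2 in CD90+/CD133- over CD90-/CD133- cells, and 8306, 9276 and 503 probe sets were called in these comparisons and between the CD90+ fractions, beside 13471, 14242 and 3546 with it. By a 2-sample t-test without the block, which the study's methods name in general and not for the arrays, after Benjamini-Hochberg, 7143, 6808 and 16 probe sets were called and 0 members were higher in either comparison with CD90-/CD133- cells. At unadjusted p that test also gave 0 higher in both, and 1 higher and 1 lower between the CD90+ fractions. By a 1.5-fold ratio of means, 1 member was higher and 1 lower in CD90+/CD133+ cells, and 0 were lower in CD90+/CD133- cells. The mean of a gene's probe sets called 1 member lower between the CD90+ fractions. That comparison gave 1633 probe sets with the label code as the block, 849 with the arrays of those fractions alone and 1623 with no filter. With arrays or replicate numbers left out, 2 to 3 members were higher and 2 to 3 lower in CD90+/CD133+ cells, 2 to 3 higher and 2 to 5 lower in CD90+/CD133- cells, and 0 to 0 higher and 0 to 1 lower between the CD90+ fractions. The probe sets called then ran from 10749 to 14132, from 11240 to 14237 and from 418 to 3500, the last lowest without replicate 4. ODC1 in CD90+/CD133+ cells also lost its call with no filter (adjusted p = 0.0653), and ASL and SLC25A13 lost theirs with the label code as the block (0.0951 and 0.0625). NAGS gave no value under the filter for bright probe sets or with a floor of 64. Signal limits NAGS, the dim SLC25A13 and SLC25A15 probe sets, OTC and ARG1, and a p that missed the threshold does not show equal levels.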
